A study of Mus musculus with 24 samples.

Results

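The response of mouse muscle to confinement was examined through 8 genes that encode the transcription factors of satellite cells and of the myogenic programme: Pax7, Myf5, Myf6, Myod1, Mef2a, Mef2c, Mef2d and Six4. They were chosen by name and found in the deposited count table by Ensembl gene ID, with 1 ID each, among 55416 genes. All 8 were among the 16408 genes with enough counts to be tested. The rule sets no threshold on a measured value.

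RNA from skeletal muscle, the gastrocnemius in the study's description, was sequenced from 24 adult wild-type mice after 8 weeks in a small mouse cage (SMC), a low acrylic box that restricts movement but leaves food and water freely available, or in sham housing. Males and females were each split into a sham and an SMC group, giving 4 groups of 6 mice. The labels spell the strain C56BL6J, and the study's methods give C57BL/6J mice bought at 8 weeks of age; no genotype is labelled other than the strain. Sham and SMC mice were housed as pairs in some of the study's experiments and apart in others, and which applied here is not given in the sources used. The comparisons ask what SMC housing did to these genes in each sex, whether the response differed between the sexes, and how the sexes differed under the same housing.

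Satellite cells are the resident stem cells of skeletal muscle, lying between the fibre and its basal lamina, and they are defined by Pax7. When they are activated they make the basic helix-loop-helix (bHLH) factors Myf5 and MyoD, while Myf6 (MRF4) is made mainly by the nuclei of mature fibres. MEF2 proteins bind DNA through a MADS box and cooperate with the bHLH factors, and homeodomain proteins of the Six4 family act upstream of them and help set the fast fibre programme.

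Libraries held between 23026627 and 36880413 counts, and the common biological coefficient of variation between mice of a group was 0.206. The sex label of each of the 24 libraries matched its sex-linked genes, and no pair of libraries in a group agreed within sampling noise. Male sham replicate 4 and female sham replicate 7 stood apart: the mean log2 CPM (counts scaled to a common library size) over 10 slow fibre genes, such as the slow myosin and troponin genes, was 1.42 and 1.22 in them and at least 5.09 in every other library. For the 8 genes, estimates that these libraries moved most are given with and without them.

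Per kilobase of annotated exon, the 8 genes spanned a wide range of expression. The level of Myf6 was highest, with a median of 42.0 CPM per kilobase over the 24 mice, followed by Mef2d at 40.9 and Mef2c at 36.5. These neighbours were not separated, since Myf6 exceeded Mef2d in 15 of 24 mice and the ranges of Mef2d and Mef2c overlapped although Mef2d was the higher in 22 of 24. Mef2a followed at 10.6 CPM per kilobase, below Mef2c in all 24 mice and without overlap. Myod1 had a median level of 5.27 and Six4 of 4.35 CPM per kilobase; their ranges overlapped, as did those of Myod1 and Mef2a, although Mef2a was the higher in all 24 mice. Pax7 at 0.632 and Myf5 at 0.588 CPM per kilobase were lowest, did not overlap with Six4, and could not be ordered between themselves, since Pax7 was the higher in 16 of 24 mice. The lengths are unions of all exons annotated for a gene, 1263 bases for Myf6 and 15715 for Mef2c, so genes with many annotated exons are set lower than a single transcript would set them.

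**Figure D1:**
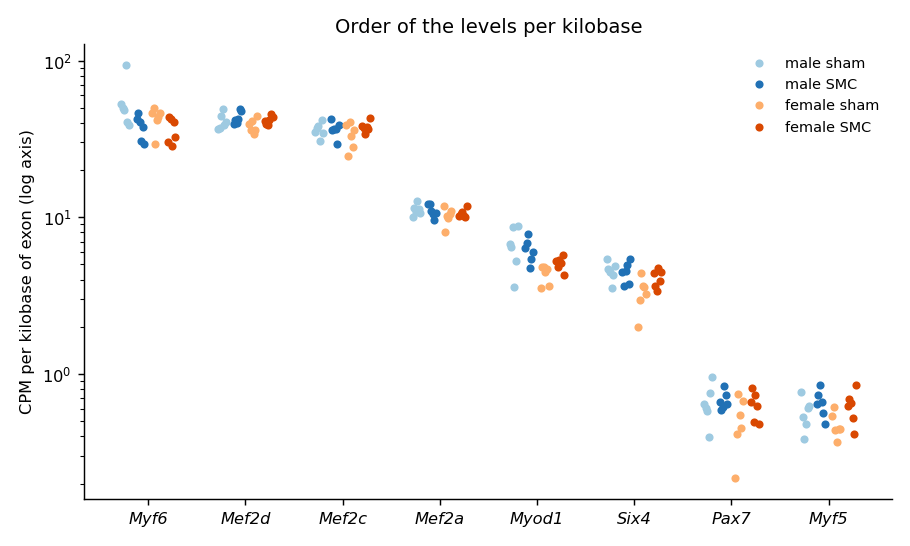
CPM per kilobase of exon (log axis) for the 8 genes in the order of their medians, 1 point per mouse, coloured by group. Myf6, Mef2d and Mef2c share the top with medians from 36.5 to 42.0, and Pax7 and Myf5 lie near 0.6, apart from the others.

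In bulk tissue, fewer cells of a type and less RNA per cell cannot be told apart, and that holds for each level given here. Pax7 was counted in every library, with 26 counts in the lowest. All 16 genes of a satellite cell marker list that holds none of the 8 genes had enough counts to be tested, as did all 8 genes of a mature muscle list, although several of the 16, such as Cd34 and Met, are also made by other cells.

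Members of these families share sequence, and counts could be mixed between genes only where a read cannot tell them apart. The longest identical runs between any pair of the 8 genes in annotated transcripts were 28 bases, between Mef2c and Mef2d, and 26 bases, between Myf5 and Myod1, both in coding sequence. The next longest, 25 bases between Mef2c and Six4, lay in untranslated sequence. The longest pairs are shown because members of a family are most alike there. A read that reaches past either end of a run meets a base that differs between the genes. Capitals mark the identical run, printed in the coding direction from GENCODE M21 transcripts on GRCm38.
Mef2c (coding bases 177 to 244, chr13:83592900-83592967, plus strand): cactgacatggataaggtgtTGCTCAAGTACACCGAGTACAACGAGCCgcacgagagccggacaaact
Mef2d (coding bases 177 to 244, chr3:88156444-88156511, plus strand): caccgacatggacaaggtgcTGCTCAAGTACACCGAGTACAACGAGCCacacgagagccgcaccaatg
Myf5 (coding bases 233 to 298, chr10:107485634-107485699, minus strand): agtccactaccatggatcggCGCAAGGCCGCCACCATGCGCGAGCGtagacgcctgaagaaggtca
Myod1 (coding bases 311 to 376, chr7:46376983-46377048, plus strand): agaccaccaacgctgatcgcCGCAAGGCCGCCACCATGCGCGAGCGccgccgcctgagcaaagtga
Mef2d also shares 531 exon bases with an antisense gene, 1700113A16Rik, that held 197 counts over all 24 mice against 164284 for Mef2d. Mef2a shares 302 exon bases with Lysmd4 on the opposite strand, which held 4874 counts against 104954 for Mef2a. Whether the counting used strand is not given in the sources used here, so counts at those bases cannot be assigned with certainty.

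Neither sex showed a change in any of the 8 genes after SMC that passed correction over all genes tested. In males 0 of 8 had an edgeR false discovery rate (FDR) under 0.05, as did 0% of all 16408 genes, and 1 of 8, Myf6, had an unadjusted p under 0.05, against 11% of all genes. In females 0 of 8 passed the FDR threshold, against 0.341% of all genes, and 1 of 8, Six4, had an unadjusted p under 0.05, against 12.5%; 1 of 8 is close to these shares. DESeq2 and limma also called 0 of 8 in either sex. In males 4 of the 8 genes and in females 7 of the 8 had a log2 fold change above 0, against 49.1% and 47.6% of all genes, with medians over the 8 of -0.01 and 0.20. Scaling by library size alone moved the median of all genes to -0.13 in males and -0.15 in females, and put Pax7, Mef2c and Mef2d in males and Mef2a and Mef2d in females below 0. For none of the 8 were SMC and sham mice of a sex fully separated, where 0.902% of genes in males and 1.03% in females were.

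**Figure D2:**
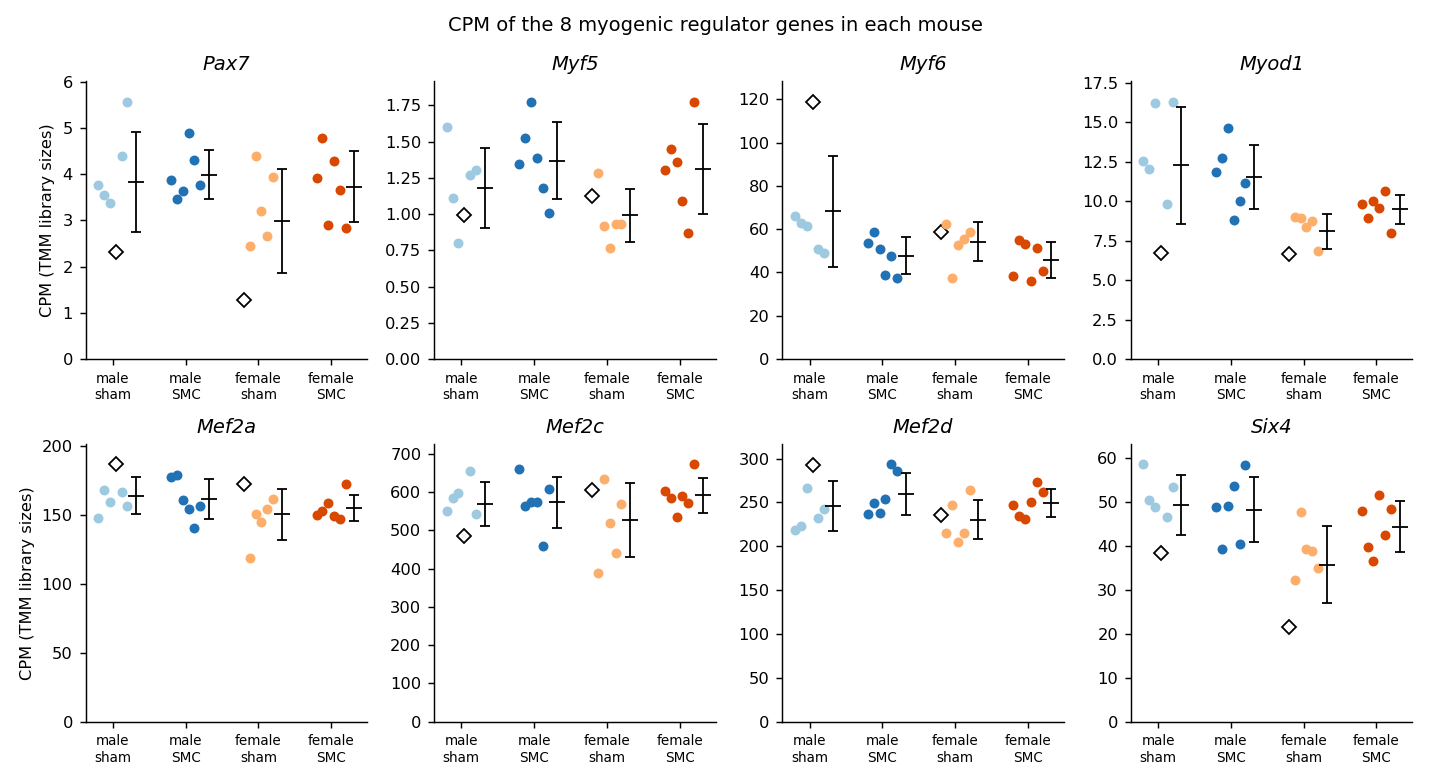
CPM of each gene in each of the 24 mice (linear axes from 0), by group, with the mean and SD beside the points; open diamonds are male sham replicate 4 and female sham replicate 7. SMC and sham points of a sex overlap for every gene, and the Myf6 diamond at 119 CPM in sham males stands above all other mice.

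Pax7, the paired-box factor that defines satellite cells, had levels of 2.32 to 5.57 CPM in sham males with a median of 3.65, and of 3.46 to 4.88 with a median of 3.82 in SMC males. In females the sham values ran from 1.27 to 4.40 CPM with a median of 2.93, and the SMC values from 2.83 to 4.78 with a median of 3.78. The lowest mouse of both sham groups was the library low in slow fibre genes, and the groups overlapped in both sexes. The log2 fold change was 0.06 (SE 0.22, 95% interval -0.39 to 0.50) in males and 0.31 (SE 0.22, -0.14 to 0.76) in females, with edgeR FDR 0.956 and 0.606. Both intervals include 0. These estimates became -0.06 in males and 0.17 in females without the libraries low in slow fibre genes. The sham libraries held between 26 and 167 Pax7 counts.

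Myf5, a bHLH factor of committed satellite cells, was the rarest of the 8 by CPM, with 21 to 61 counts per library. Sham males had 0.803 to 1.602 CPM with a median of 1.19, and SMC males 1.004 to 1.77 with a median of 1.36. Sham females had 0.766 to 1.28 CPM with a median of 0.932, and SMC females 0.868 to 1.78 with a median of 1.33; 4 of the 6 SMC females lay above every sham female. The log2 fold change was 0.21 (SE 0.19) in males and 0.40 (SE 0.19) in females, with unadjusted p of 0.281 and 0.0503 and edgeR FDR of 0.75 and 0.402.

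Myod1 encodes a bHLH factor of myogenic differentiation. Its levels were 6.71 to 16.3 CPM in sham males (median 12.3) and 8.83 to 14.6 in SMC males (median 11.5). In sham females it had 6.63 to 9.02 CPM (median 8.54), and in SMC females 7.97 to 10.7 (median 9.68). Which cells of the muscle held the Myod1 RNA was not tested. Sham males were the most spread of the 4 groups, with a coefficient of variation of 30.3% against 9.8% in SMC females. The log2 fold change after SMC was -0.09 (SE 0.16) in males and 0.23 (SE 0.16) in females, with edgeR FDR of 0.892 and 0.609. It was -0.23 in males, with an FDR of 0.478, and 0.18 in females without the libraries low in slow fibre genes.

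Myf6, the bHLH factor of mature fibres, was the member with the smallest p after SMC. Sham males had 49.0 to 119 CPM with a median of 62.0, and SMC males 37.2 to 58.6 with a median of 49.2. In females the sham values were 37.3 to 62.4 CPM with a median of 57.0, and the SMC values 36.2 to 55.0 with a median of 46.0. No SMC mouse of either sex reached its sham median, but the groups overlapped, with 3 of 6 SMC males below every sham male and 1 of 6 SMC females below every sham female. The log2 fold change was -0.51 (SE 0.18, 95% interval -0.88 to -0.15) in males with an unadjusted p of 0.00817 and an edgeR FDR of 0.283, and -0.24 (SE 0.18, -0.61 to 0.12) in females with an FDR of 0.627. Male sham replicate 4 held the highest Myf6 level of all mice, and without it the male log2 fold change was -0.29, with an unadjusted p of 0.0437 and an FDR of 0.444.

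The share of Myf6 in the summed CPM per kilobase of Myf5, Myf6 and Myod1 had a median of 87.4% in sham males, 85.4% in SMC males, 89.8% in sham females and 86.6% in SMC females. Myf5 supplied a median of 0.988% to 1.47% in the 4 groups. Myod1 supplied the remainder, with medians of 11.4% in sham males, 12.98% in SMC males, 9.19% in sham females and 11.9% in SMC females. Myf6 thus made up most of the sum in all 4 groups.

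The MEF2 genes had the narrowest intervals. Mef2a had medians of 163 CPM in sham males, 159 in SMC males, 152 in sham females and 152 in SMC females, and its values over all mice lay between 119 and 187 CPM. Its log2 fold change after SMC was -0.02 (SE 0.08) in males and 0.04 (SE 0.08) in females. Mef2c, the most abundant of the 8 by CPM, had medians of 568 and 574 CPM in sham and SMC males and 544 and 586 in sham and SMC females. Female sham replicates 8 and 11, at 389 and 440 CPM, were below all other mice. With library size as the only scaling they were at 513 and 479 CPM. Male SMC replicate 17, at 444, and male sham replicate 4, at 460, were then lower. The Mef2c log2 fold change was 0.01 (SE 0.11) in males and 0.17 (SE 0.11) in females. Mef2d had medians of 238 and 251 CPM in sham and SMC males and of 226 and 249 in sham and SMC females, and all 6 SMC females lay above the sham female median. The Mef2d log2 fold change was 0.08 (SE 0.08) in males and 0.12 (SE 0.08) in females. None of these 6 estimates had an unadjusted p under 0.05, and the widest of their 95% intervals, those of Mef2c, ran from -0.21 to 0.23 in males and from -0.05 to 0.39 in females.

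Six4, a homeodomain factor that acts with Eya proteins on myogenic genes, had 38.4 to 58.7 CPM in sham males (median 49.7) and 39.3 to 58.5 in SMC males (median 49.0). Sham females had 21.6 to 47.8 CPM with a median of 36.95, and SMC females 36.6 to 51.6 with a median of 45.2; 3 of the 6 sham females lay below every SMC female. The log2 fold change was -0.03 (SE 0.14, 95% interval -0.32 to 0.26) in males and 0.31 (SE 0.14, 0.02 to 0.60) in females, with unadjusted p of 0.815 and 0.0361 and edgeR FDR of 0.961 and 0.352. Leaving out the libraries low in slow fibre genes gave -0.11 in males and 0.21 in females, the latter with an unadjusted p of 0.0804.

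**Figure D3:**
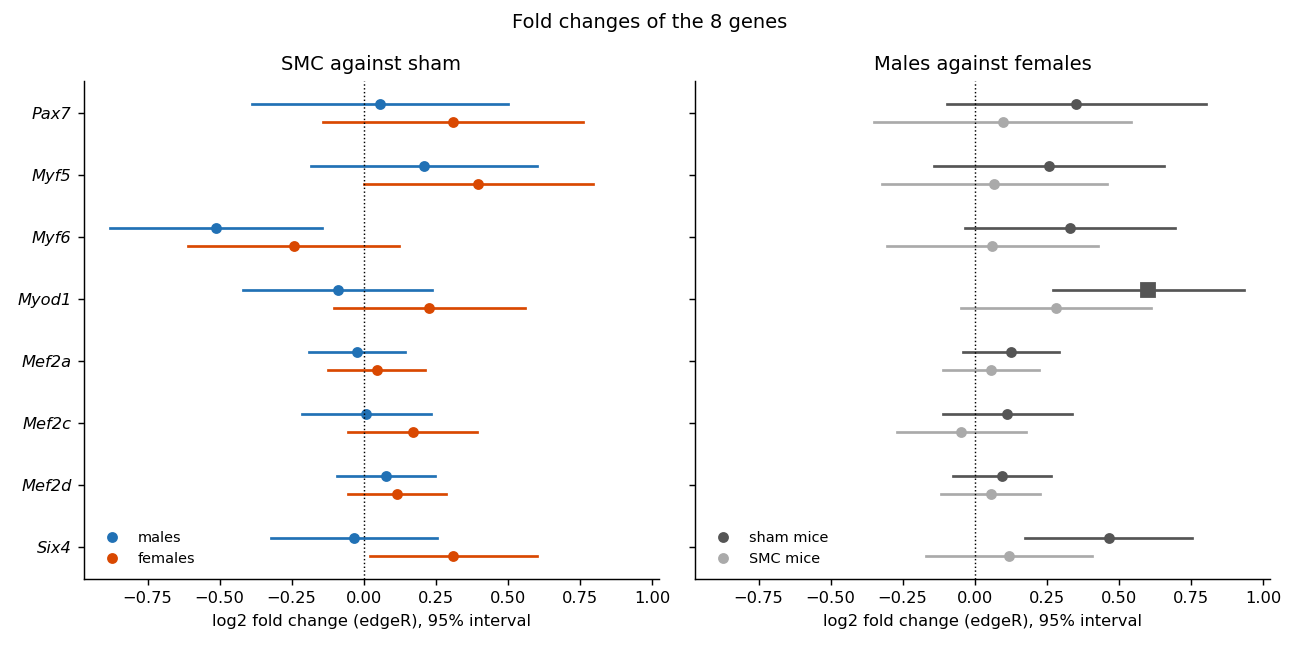
Log2 fold change of each gene with its 95% interval from edgeR, for SMC against sham in males and females (left) and for males against females in sham and SMC mice (right); the square is the only estimate with an FDR under 0.05, Myod1 in sham males against sham females at 0.60. Myf6 is the only gene below 0 in both sexes after SMC.

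The response of the sexes to SMC was compared directly as the male minus the female log2 fold change. It was below 0 for 8 of 8 genes, where 51.6% of all genes were above 0, with a median of -0.22 over the 8 and 0.01 over all genes. No member and no other gene passed the FDR threshold (0 of 8 and 0% of 16408), and 0 of 8 had an unadjusted p under 0.05, against 5.13% of all genes. The smallest p belonged to Six4, whose difference was -0.34 (SE 0.20) with an unadjusted p of 0.0945 and an edgeR FDR of 0.955. With the libraries low in slow fibre genes left out, the difference for Myf6 was -0.08 in place of -0.27 and that for Myod1 was -0.41 in place of -0.32, with an FDR of 0.637. Among lists of other cells, 5 of 5 adipocyte genes, with a median of -1.14, and 5 of 5 red blood cell genes, with a median of -0.50, were also below 0 in this comparison, and 6 of 6 Schwann cell genes were above 0; their part in the values of the 8 genes was not tested. A sex difference in the response of these genes was not shown.

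Averaged over the sexes, which uses the same 24 mice and is not separate evidence, 7 of 8 genes had a log2 fold change above 0 against 47.6% of all genes; with library size as the only scaling, which moved the median of all genes to -0.14, the small estimates of Myod1, Mef2a, Mef2c, Mef2d and Six4 lay below 0. None of the 8 passed the FDR threshold, against 2.36% of genes tested, and 2 of 8 had an unadjusted p under 0.05, against 17.5%. Myf6 had a log2 fold change of -0.38 (SE 0.13) with an unadjusted p of 0.00609 and an FDR of 0.107, and Myf5 one of 0.30 (SE 0.14) with an unadjusted p of 0.0343 and an FDR of 0.236. Without the libraries low in slow fibre genes, the Myf6 value was -0.25, with an FDR of 0.143, and Pax7 and Six4 were both at 0.05 in place of 0.18 and 0.14.

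The sham mice gave the only difference among the 8 genes that passed the FDR threshold, between males and females. In this comparison, which shares the sham mice with those above, all 8 genes had higher fitted levels in males, where 49.6% of all genes did, with a median log2 fold change of 0.29 over the 8 and 0.00 over all genes. Of the 8, 1, Myod1, passed the FDR threshold, against 1.97% of all genes, and 2 of 8, Myod1 and Six4, had an unadjusted p under 0.05, against 15.5%. No member separated sham males from sham females fully, where 1.13% of genes did.

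Myod1 was 1.52-fold higher in sham males than in sham females, with a log2 fold change of 0.60 (SE 0.16, 95% interval 0.27 to 0.93) and an edgeR FDR of 0.0487. Of the 6 sham males, 5 lay above every sham female, and male sham replicate 4, at 6.71 CPM, lay above only the lowest of them. The call was narrow: leaving out single libraries gave log2 fold changes of 0.51 to 0.74 but FDR values of 0.00301 to 0.129, and the FDR was under 0.05 in 5 of those 24 fits. Without male sham replicate 4 it was 0.00301, and without male sham replicate 3 or 6, the sham males with the highest Myod1, it was 0.127 and 0.129. With both libraries low in slow fibre genes left out, the log2 fold change was 0.69 and the FDR 0.00765; with no scaling but library size the FDR was 0.142.

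Six4 was 1.38-fold higher in sham males, with a log2 fold change of 0.46 (SE 0.14) and an FDR of 0.0852, and 4 of the 6 sham males lay above every sham female. Its FDR was 0.0484 without the libraries low in slow fibre genes and 0.00184 when the slow fibre score entered the model, both past the threshold. The other 6 genes had log2 fold changes from 0.09 for Mef2d to 0.35 for Pax7, none with an unadjusted p under 0.05. Myf6, at 0.33, was at 0.13 without the libraries low in slow fibre genes.

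Among SMC mice, 7 of 8 genes were higher in males, against 49.7% of all genes, with a median log2 fold change of 0.06. None of the 8 passed the FDR threshold, against 1.03% of genes, and 0 of 8 had an unadjusted p under 0.05, against 10.5%. None separated the sexes fully, where 2.08% of genes did. Myod1 again had the largest estimate, 0.28 (SE 0.16) with an edgeR FDR of 0.566, and 4 of the 6 SMC males lay above every SMC female. This comparison was added after the sham difference was seen. The male minus female response of Myod1, which is the same quantity as the difference of the sex effects between SMC and sham mice, was -0.32 (SE 0.23) with an unadjusted p of 0.171, so the effect of sex was not shown to differ between the housings.

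Some marker lists of other cells leaned to 1 sex in the sham mice, with no gene of the lists given here past the FDR threshold. Others leaned less, with 2 of 6 fibroblast, 4 of 6 macrophage and 3 of 6 pericyte genes higher in males. All 6 Schwann cell genes had lower fitted levels in sham males than in sham females, with a median of -0.51, 3 of them at an unadjusted p under 0.05 (15.5% of all genes) and 0 past the FDR threshold. Their summed CPM was 42.4 to 86.7 in sham males and 58.0 to 161 in sham females, and all 6 had enough counts to be tested. The summed CPM of 6 tendon cell genes was 165 to 300.2 in sham males and 199 to 758 in sham females, with 5 of 6 lower in males and 2 at an unadjusted p under 0.05. The slow fibre genes had a median log2 fold change of -0.54, with 7 of 10 lower in males. That median includes the library low in slow fibre genes of either sham group, and no value is given without those libraries. The 5 red blood cell genes were all higher in males, with a median of 0.57 and 0 at an unadjusted edgeR p under 0.05. Their summed CPM overlapped, at 174 to 1569 in sham males and 74.3 to 1844 in sham females. The part of these markers in the Myod1 and Six4 differences was not tested.

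The 2 libraries low in slow fibre genes were also extreme for several of the 8 genes. Pax7 was at 2.32 CPM in male sham replicate 4 and 1.27 in female sham replicate 7, the lowest values of all 24 mice. Myod1, at 6.71 and 6.63 CPM, was lowest in the same pair. Six4, at 38.4 and 21.6 CPM, was the lowest of its sham group in both. Mef2a, at 187 and 172 CPM, was the highest of its sham group in both. Myf6 differed between them, at 119 CPM in the male, far above the other 5 sham males at 49.0 to 66.3, and at 58.8 CPM in the female, inside the range of her group. Myf5 was inside the range of its group in both libraries.

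**Figure D4:**
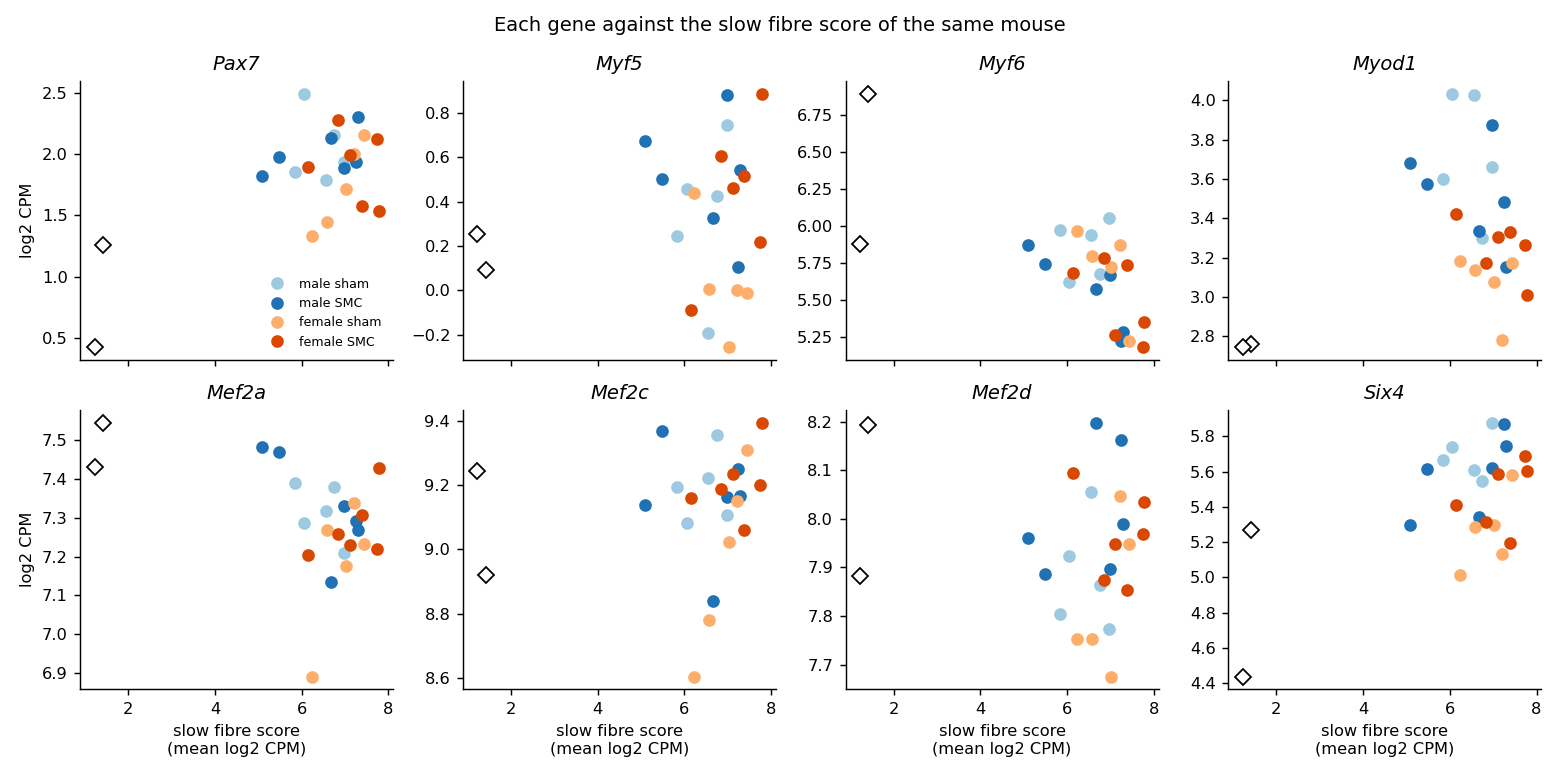
Log2 CPM of each gene against the slow fibre score (mean log2 CPM of 10 slow fibre genes) of the same mouse, 1 point per mouse coloured by group. The open diamonds at scores of 1.42 and 1.22 are male sham replicate 4 and female sham replicate 7, apart from the other 22 mice at 5.09 or more.

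Because those libraries form a cluster of their own, relations with the slow fibre score were computed within the other 22 mice, after removing group means. With all 24 mice, 3 of 16 relations had an adjusted permutation p for Pearson r under 0.05, those of Pax7, Myf6 and Six4 with the slow fibre score, but no r is given across the separate clusters. Within the 22 mice, none of the 16 relations, 8 with the slow fibre score and 8 with the score of the satellite cell marker list, passed a permutation test after Benjamini-Hochberg adjustment. The strongest was Myf6 with the slow fibre score, at Pearson r -0.60 and Spearman rho -0.61 (permutation p 0.00767 and 0.00788, adjusted 0.123 and 0.063). Six4 went the other way, at r 0.54 and rho 0.62 (permutation p 0.0244 and 0.00719, adjusted 0.195 and 0.063). Pax7 had r 0.21 with the slow fibre score and -0.10 with the satellite cell marker score, neither of which passed.

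Between the 8 genes, 1 of 28 pairs passed. Myf6 and Six4 went in opposite directions among mice of the same group, with Pearson r -0.67 and Spearman rho -0.71 over 24 mice (permutation p 0.00033 and 0.0003, adjusted over 28 pairs 0.00924 and 0.0084). Without male sham replicate 4 and female sham replicate 9, the mice farthest from the median of Myf6, r was -0.53 (permutation p 0.0063). Without the libraries low in slow fibre genes, r was -0.74 and rho -0.73 (adjusted permutation p 0.0241 and 0.0235). All 8 genes come from the same libraries and share their depth and scaling, and both Myf6 and Six4 had an unadjusted relation with the slow fibre score in the same 22 mice, given above.

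**Figure D5:**
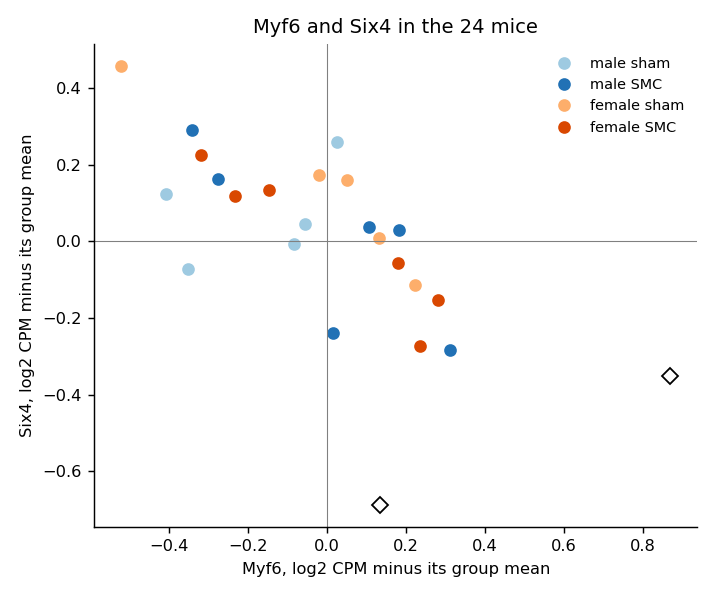
Six4 against Myf6 in the 24 mice, each as log2 CPM minus the mean of its group; points are mice, coloured by group, and open diamonds are male sham replicate 4 and female sham replicate 7. The points fall from upper left to lower right, with Pearson r -0.67, and r -0.74 without the diamonds.

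Other pairs had sizeable coefficients without passing the adjustment. Pax7 and Myf6 had r -0.56 and rho -0.52 (adjusted permutation p 0.0843 and 0.195), and r -0.49 in the 22 mice (adjusted permutation p 0.216). Leaving out female sham replicates 7 and 9, the mice farthest from the median of Pax7, gave r -0.60 (permutation p 0.0163). Pax7 and Six4 had r 0.68 and rho 0.46 (adjusted permutation p 0.0591 and 0.208), and r 0.30 without the libraries low in slow fibre genes, so that relation rests on them. Mef2a and Mef2c had r 0.55 and rho 0.44 (adjusted permutation p 0.126 and 0.208), and r 0.69 in the 22 mice (adjusted permutation p 0.0582). Without female sham replicates 7 and 8, the mice farthest from the median of Mef2a, that r was 0.27 (permutation p 0.262). The 28 coefficients ran from -0.67 to 0.68.

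Of 13193 other genes with a mean of at least 1 CPM, those among the most like each member across the 24 mice after removal of group means were as follows. Myf6 was most like Tfdp2, Lpin1 and Enox2, with r of 0.86, 0.85 and 0.83. For Six4 they were Rasgrf2, Tspan12 and Khdrbs3, at 0.86, 0.86 and 0.85. Pax7 was close to Prex1 and Adcy7, at 0.85 and 0.84. Mef2a had the closest partners, Zbtb44, Kpna4 and Phf10, at 0.93, 0.89 and 0.89. Mef2c followed Atp2b1, Coa5 and Carnmt1, at 0.87, 0.85 and 0.85, and Mef2d followed Thra, Ndrg2 and Uba1, at 0.85, 0.84 and 0.83. The nearest genes to Myf5 were Piga, Vcl and Rnf135, at 0.73, 0.72 and 0.71, and those to Myod1 were Tesk2, Sec14l5 and Rnft2, at 0.73, 0.73 and 0.71. Without the libraries low in slow fibre genes, the r of Pax7 with Prex1 was 0.70 and that of Myod1 with Sec14l5 was 0.41, while that of Mef2a with Zbtb44 was 0.91. Of the 24 partners, 7 were still among the first 3 of their gene without those libraries, and 0 were for Pax7 and for Six4. These coefficients describe mice that share libraries and depth, and they were selected as the largest of many.

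Promoter windows from RefSeq (GRCm38.p6, 250 bases before to 50 after an annotated start) were searched on both strands for the letters CANNTG (the E box, bound by bHLH factors), for the MEF2 consensus and for TCAGGTT (MEF3, bound by proteins of the Six4 family). They were 9 windows of 6 genes, those of Pax7, Myf5, Mef2a, Mef2c, Mef2d and Six4; Myf6 and Myod1 were not searched. The E box was in 2 of the 9, both of Mef2c, against 72.3% of 32851 promoters. The MEF2 consensus was in 1 of the 9, that of Mef2a, against 3.19% of promoters, and MEF3 in 2 of the 9, of Mef2c and Six4, against 4.07%. The Six4 and Mef2a windows are shown because each holds the letters of its own protein family's motif, in capitals, which in these windows overlap no other motif searched.
Six4 (150 bases before the start, chr12:73113246-73113395, minus strand): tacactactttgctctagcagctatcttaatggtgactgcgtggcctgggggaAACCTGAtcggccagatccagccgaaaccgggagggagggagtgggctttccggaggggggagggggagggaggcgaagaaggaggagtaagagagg
Mef2a (60 bases before the start to 20 after it, chr7:67372839-67372918, minus strand): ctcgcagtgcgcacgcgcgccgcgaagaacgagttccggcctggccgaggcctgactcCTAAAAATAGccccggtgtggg
The Six4 match lies 97 bases before the annotated start on the reverse strand, and the Mef2a match begins 2 bases before the start and runs across it. These are matches of letters and not measured binding sites.

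Genes that work with the 8 were read from lists chosen for this purpose. Among 15 tested regulators of the same programme (Myog, Six2, Six5, the Eya genes, Tead1, Tead4, Srf, Nfix and others), 0 passed the FDR threshold in either sex after SMC, with 10 of 15 in males and 11 of 15 in females above 0. In SMC males Tead1, a TEAD factor, stood at 0.32 on the log2 scale (SE 0.14, FDR 0.399). Myog, the bHLH factor of differentiation, had mean levels of 2.93 CPM in sham males, 2.24 in SMC males, 5.16 in sham females and 3.90 in SMC females. Its sham male to sham female log2 fold change was -0.82 (SE 0.32, edgeR FDR 0.192), opposite in sign to that of Myod1. The Myog values overlapped, at 1.87 to 3.91 CPM in sham males and 2.92 to 10.3 in sham females. Most of the list went the other way, with 10 of 15 regulators higher in sham males and a median of 0.15. None of the 15 passed the FDR threshold in that comparison.

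Of 16 satellite cell markers, 0 passed in males or in females after SMC, and 1 passed in the average over the sexes, against the 2.36% of all genes given above. That gene was Notch3, a receptor of satellite cells that mural cells of vessels also express. Its mean level was 50.4 CPM in sham males and 68.6 in SMC males, and 51.3 in sham females and 62.5 in SMC females, and its average change was 0.36 on the log2 scale (SE 0.08, edgeR FDR 0.0138). Beside it, all 6 pericyte and smooth muscle genes were above 0 in both sexes, and 2 of 6, Acta2 and Myh11, passed in the average, at 0.73 (SE 0.14) and 0.57 (SE 0.11). The summed CPM of those 6 genes was 349 to 520 in sham males and 503 to 554 in SMC males, and 363 to 508 in sham females and 470 to 545 in SMC females. Whether Notch3 moved with those cells was not tested. After SMC 9 of the 16 markers in males and 11 of 16 in females were above 0. In females 4 were higher and 2 lower at an unadjusted edgeR p under 0.05 (12.5% of all genes). Met had the smallest p in females, at 0.35 on the log2 scale (SE 0.11, FDR 0.161). Msc, which encodes a bHLH repressor, was at -1.10 in SMC females (SE 0.36, FDR 0.17). Its mean levels were low, at 1.31 CPM in sham females and 0.61 in SMC females.

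Among 14 E proteins and inhibitors of bHLH factors, 1 passed in females after SMC, against 0.341% of all genes. In the average over the sexes 1 passed, against 2.36%. In both cases it was Bhlhe41, a bHLH repressor of the circadian clock. Its mean level was 65.7 CPM in sham males, 91.5 in SMC males, 36.9 in sham females and 62.2 in SMC females. The log2 fold change after SMC was 0.75 (SE 0.16, edgeR FDR 0.0473) in females and 0.48 (SE 0.16, FDR 0.27) in males, and between sham males and sham females it was 0.83 (SE 0.16, FDR 0.00718). Its average change after SMC was 0.62 (SE 0.11, edgeR FDR 0.0076). The 3 E protein genes and the 4 Id genes of the list did not pass in any comparison of housing.

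None of 19 partners and regulators of MEF2 (class IIa histone deacetylases, calcineurin and CaMKII subunits, Vgll cofactors and others) passed in males, in females or in the average, although 15 of 19 in males and 12 of 19 in females were above 0. Hdac9, which represses MEF2, had the smallest p in the average, at 0.43 on the log2 scale (SE 0.13, edgeR FDR 0.079). Of 13 tested target genes of MEF2 and bHLH factors, 0 passed in those comparisons. The 8 fast glycolytic genes placed downstream of the Six4 family had 0 calls, with medians of 0.06 in males and 0.12 in females.

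Of 10 regeneration and fusion genes tested, 1 passed in the average over the sexes, against 2.36% of all genes. It was Cdkn1a, the cell cycle inhibitor p21 that MyoD is known to induce. Its mean levels were 33.9 CPM in sham males and 10.3 in SMC males, and 62.8 in sham females and 21.1 in SMC females. It fell by 1.65 on the log2 scale (SE 0.27, edgeR FDR 0.00363), with FDR of 0.093 in males and 0.0638 in females. The sham values ranged from 13.4 to 74.1 CPM in males and from 25.3 to 128 in females. No SMC male exceeded 12.4, so the groups of males did not overlap, as for 0.902% of all genes. The SMC females, at 12.5 to 29.7 CPM, overlapped with the sham females. The fusion genes Mymk and Mymx had too few counts to be tested, and of 6 tested proliferation genes 0 passed after SMC in either sex.

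Lists of fibre types and of other cells were read the same way for SMC against sham. No gene passed in either sex among the slow fibre, fast fibre, fibroblast, tendon cell, endothelial, pericyte, macrophage, adipocyte, Schwann cell, red blood cell or denervation lists. The slow fibre genes had medians of 0.57 in males and 0.61 in females, with 7 and 10 of 10 above 0. Both sham groups included a library low in these genes, at scores of 1.42 and 1.22, and no median is given without those libraries. Tendon cell genes in females had a median of -0.72, with 4 of 6 at an unadjusted p under 0.05 (12.5% of all genes), and their summed CPM was 199 to 758 in sham and 127 to 388 in SMC females. The Schwann cell genes had 6 of 6 above 0 in males and 5 of 6 in females. Adipocyte genes were 5 of 5 below 0 in males, with a median of -0.46, and 5 of 5 above 0 in females, with a median of 0.79. Macrophage genes were 6 of 6 below 0 in males (median -0.19) and 4 of 6 in females (median -0.06). Red blood cell genes were 5 of 5 below 0 in males (median -0.43) and 5 of 5 above 0 in females (median 0.05). No gene of the macrophage and red blood cell lists had an unadjusted edgeR p under 0.05 in either sex. The part of these markers in the values of Myf6, Myf5 and Six4 after SMC was not tested.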

How the data were processed

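Raw counts per Ensembl gene were deposited by the authors for 24 libraries, 6 per group, made from total RNA with rRNA depletion and a directional kit. The submitters' processing notes name cutadapt 1.16, STAR 2.7.9a, featureCounts 1.6, DESeq2 1.34.0 and the build GRCm39 without giving roles; the annotation release and strand setting are not given in the sources used here. Totals ran from 23026627 to 36880413 counts; intervals cover spread between mice, counting error included.

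Genes kept by filterByExpr (16408) were fitted with edgeR 4.0.16 (R 4.3.3), with TMM scaling, 1 mean per group and quasi-likelihood tests, and p-values were adjusted by Benjamini-Hochberg over all of them at an FDR of 0.05. CPM used TMM library sizes, and log2 CPM a prior count of 2. Correlations used log2 CPM minus group means and 100000 permutations within groups, two-sided (scipy 1.17.1, numpy 2.4.6). Lengths came from GENCODE M21 on GRCm38, used only per gene ID, since the counts were made on another build. Scripts were tested on simulated data. DESeq2 1.42.0, limma 3.58.1, other scalings and filters, a slow fibre covariate and left-out libraries were the alternatives.

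All 8 genes are named; of every other list, at most the 2 genes of smallest unadjusted p; and per member the 3 most alike genes, of which 1 is not reported here. The members and lists were chosen with earlier results of these data known. The labels list the 24 samples separately, and the study counts individual mice. The mice carry numbers that no groups share.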

Additional observations from a re-analysis of the deposited data

Results flagged for a closer look

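The Myf6 level of male sham replicate 4, at 119 CPM, lay far from the other 5 sham males at 49.0 to 66.3 CPM. It was picked out because its gap to the nearest mouse, divided by the range of the group, was above Dixon's 95% critical ratio for 6 values. Among the 32 groups of 6 values examined (8 genes in 4 groups) it was the only such value, and chance alone flags about 1 in 20 groups, or about 1.6 of 32. The same library had the lowest Pax7, Myod1, Mef2c and Six4 levels of its group, the highest Mef2a and Mef2d, and a slow fibre score of 1.42. The part of these features in its Myf6 level was not tested.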

How the results depend on the processing

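No paired analysis was possible because the mice carry numbers that no groups share. The number of genes passing the FDR threshold moved by over 1.5 times with several settings, whose cause was not tested. For SMC in males, where it was 0, it became 133 with DESeq2, 93 with limma and 9 when the slow fibre score entered the model. For SMC in females, 56 became 268 with DESeq2, 37 with DESeq2's size factors in edgeR, 215 with library size only, 16 with limma, 178 with the slow fibre score, 155 without the libraries low in slow fibre genes and 14 with only the 12 mice of that sex. The interaction gave 0, and 1 with DESeq2. The average gave 388, then 778 with DESeq2, 1861 with library size only, 189 with no filter and 726 with the slow fibre score. Sham males against sham females gave 324, then 575, 179, 743 and 511 with DESeq2, library size only, the slow fibre score and those libraries left out. SMC males against SMC females, a comparison chosen after seeing the data, gave 169, then 322 with DESeq2, 546 with limma, 383 with the slow fibre score and 289 without those libraries. Leaving out 1 library gave 0 to 78 in SMC males, 0 to 147 in SMC females, 0 to 1 for the interaction, 236 to 501 for the average, 187 to 487 in sham mice and 115 to 221 in SMC mice.

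Of the 8 genes, those called in sham males against sham females numbered 1, then 2 with DESeq2, the slow fibre score or those libraries left out, 0 with library size only or at least 10 counts in every sample, and 0 to 2 with 1 library left out. In the average 1, Myf6, was called with library size only (FDR 0.0159). Scaling by library size alone moved the higher share of calls from 35.7% to 6.05% in females, 43.6% to 3.65% in the average and 42.3% to 54.2% between sham mice.

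Direction turned for small estimates. With library size only, males gave Pax7 -0.080, Mef2c -0.12 and Mef2d -0.042, females Mef2a -0.074 and Mef2d -0.015, and the average Myod1 -0.080, Mef2a -0.11, Mef2c -0.032, Mef2d -0.028 and Six4 -0.0056. With no filter Mef2c in males was -0.0013. With limma Pax7 in males was -0.0355 and the Mef2d interaction 0.0093. With the slow fibre score, Pax7 in males was -0.073, Mef2a in males 0.012 and Myf6 between SMC sexes -0.036. Without the libraries low in slow fibre genes, males gave Pax7 -0.06, Mef2a 0.0057 and Mef2c -0.043, and the average Myod1 -0.021. Leaving out 1 library gave, in males, Pax7 -0.06 to 0.19, Myod1 -0.23 to 0.0037, Mef2a -0.061 to 0.0057, Mef2c -0.044 to 0.056 and Six4 -0.11 to 0.020; Mef2a in females -0.017 to 0.092 and in the average -0.022 to 0.030; the Mef2d interaction -0.096 to 0.0023; and between SMC sexes Myf5 -0.037 to 0.18, Myf6 -0.0046 to 0.12 and Mef2c -0.097 to 0.0031.

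Without the libraries low in slow fibre genes, r turned for Pax7 with Myod1 (-0.19) and Mef2d (0.27), Myf6 with Myod1 (0.19) and Mef2d (-0.35), Myod1 with Six4 (-0.015), Mef2a with Mef2d (-0.022) and Six4 (0.060), Mef2d with Six4 (0.097), the slow fibre score with Myod1 (-0.38) and Mef2d (0.24), and the satellite cell score with Pax7 (-0.10) and Myod1 (-0.054). With those libraries out, the slow fibre score with Pax7 (0.21), Myf6 (-0.60) and Six4 (0.54) lost the threshold, and with a prior count of 0.5 the satellite cell score with Mef2a (-0.58) gained it. Counts were lowest for Myf5, at 21 to 61 per library; what depth adds to its spread was not tested.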
